A study of Bos taurus with 11 samples.

Results

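*MiR-132* and *miR-212* are 2 miRNAs whose genes lie side by side in the bovine genome, and both were followed here through every library of a mammary miRNome comparison. The members were chosen by name, as the rows of the deposited count table called bta-miR-132 and bta-miR-212, and both were found among the 796 miRNAs of the table. Small RNA was sequenced from mammary gland (MG) biopsies of lactating dairy cows (*Bos taurus*) of 2 breeds, Holstein (n = 5) and Montbéliarde (n = 6), with 1 library per cow. All cows were in mid-lactation and received the same diet, and no treatment is named in the labels. Their ages are not in the labels either. A biopsy holds secretory epithelium, stroma, vessels and leukocytes together, so the compartment in which either miRNA was expressed was not measured. The libraries are named by breed and by the tag in their labels. The Holstein tags (CNLX1 to CNLX9) all precede the Montbéliarde tags (CNLX13 to CNLX23), and an effect of that order cannot be told apart from breed.

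MiRNAs are cut from hairpin precursors and guide the repression of mRNAs that pair with the 5′ end of the miRNA, called the seed. In mammals, *miR-132* and *miR-212* come from 1 primary transcript that is induced through the transcription factor CREB, and they are best known from neurons, where they follow synaptic activity. In the mouse MG, the locus has been described as active in the stroma, the connective tissue around the ducts. Whether it is needed for the outgrowth of the ducts was not examined here. In the RefSeq annotation of assembly ARS-UCD2.0, *MIR132* and *MIR212* are direct neighbours on chromosome 19, with *OVCA2* on the one side and *HIC1* on the other, and no annotated gene lies around either. *MIR22* lies on the same chromosome, with 10 annotated genes between it and *MIR132*. The names in the table do not state the hairpin arm of either miRNA.

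Summed over all miRNAs, the counts of a library were between 6087865 and 16808976. Some miRNAs had the same level, such as *let-7b* and *miR-3596* (mean normalized read count of 45101 each). A read can thus stand under more than 1 name, and these sums can exceed the number of reads. Library CNLX15 of the Montbéliarde cows stood apart in part of its cell type markers. It had the lowest normalized read count of *miR-200c* (13406), an epithelial miRNA. It had the highest of *miR-143* (3838094), a miRNA of smooth muscle and fibroblasts, and of *miR-155* (2644), a leukocyte miRNA. Not all markers went this way, since CNLX15 also had the highest epithelial *miR-183* (4690) and *miR-96* (340). Stromal *miR-145* was highest in CNLX3, and leukocyte *miR-150* and *miR-142-3p* in CNLX21. Dixon's gap rule, applied within each breed to the members and the list levels, flagged no library in the 14 groups tested. This rule can miss libraries that lie apart together. In the mean log2 epithelial level, CNLX15 (12.90) and CNLX21 (12.97) were both below CNLX19 (13.44), the next Montbéliarde library. The spread, the breed values and the correlations of *miR-132*, and the medians of the marker lists, are also given without CNLX15. Normalized read counts are the counts divided by 1 scaling factor per library.

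*MiR-132* was detected in every library at a moderate level, whereas *miR-212* was close to the limit of detection. Averaged over the 11 libraries, the normalized read count was 168 ± 76.1 (SD, n = 11) for *miR-132* and 3.05 ± 2.33 (SD, n = 11) for *miR-212*. *MiR-132* had rank 184 by mean among the 754 miRNAs with a read, and *miR-212* rank 437. Within single libraries the rank of *miR-132* was between 156 and 211, and that of *miR-212* between 365 and 530. The miRNAs next to *miR-132* in this order were *miR-18a* (176) and *miR-1388-3p* (175) above it, and *miR-34c* (166) and *miR-223* (164) below it. These neighbours were apart by less than the spread between cows. *MiR-212* ranked between *miR-2284p* and *miR-3064* (both 3.12) and *miR-2285aj-5p* (3.05) and *miR-2285ch* (2.98), again without a gap larger than the spread.

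**Figure D1:**
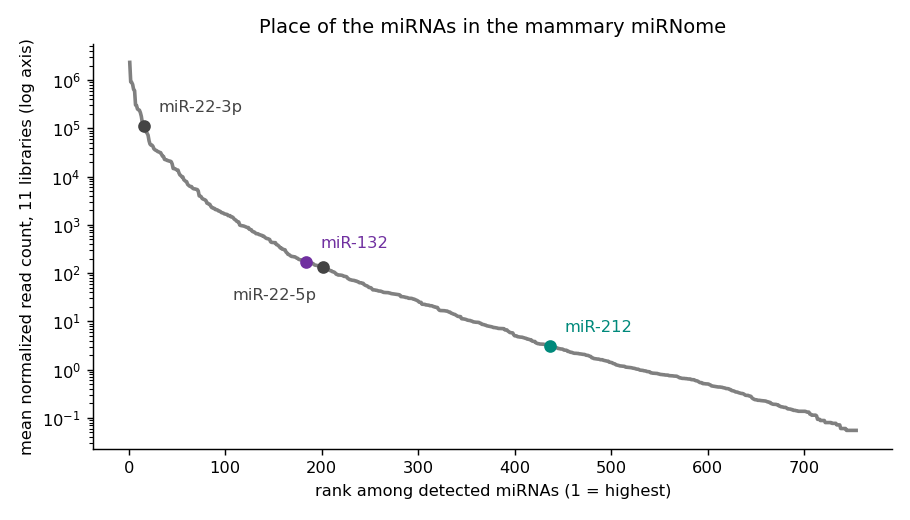
Mean normalized read count over the 11 libraries (y axis, log scale) against rank among the 754 miRNAs with a read (x axis). *MiR-132* lies at rank 184 with a mean of 168, near *miR-22-5p* (133), and *miR-212* at rank 437 with a mean of 3.05, far below *miR-22-3p* (112113).

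In the Holstein libraries, *miR-132* had 110 reads in CNLX1, 133 in CNLX3, 334 in CNLX5, 203 in CNLX7 and 98 in CNLX9. As normalized read counts these were 96.6, 136, 202, 134 and 128, so that CNLX5 was the highest and CNLX1 the lowest, 2.09-fold apart. In the Montbéliarde libraries, the reads were 53 in CNLX13, 284 in CNLX15, 82 in CNLX17, 165 in CNLX19, 273 in CNLX21 and 247 in CNLX23. Their normalized read counts were 88.3, 355, 123, 160, 231 and 194, a 4.02-fold range with CNLX15 at the top and CNLX13 at the bottom. Both the highest and the lowest level of the whole series were thus found in Montbéliarde cows. The exact Poisson 95% interval, which covers counting error only, was 315 to 399 for CNLX15 and 204 to 260 for CNLX21, the next highest, and these intervals did not overlap. As a share of the summed counts of a library, *miR-132* made up 3.11e-03% in CNLX15 (Wilson 95% interval 2.77e-03 to 3.49e-03%) and 8.71e-04% in CNLX13 (6.66e-04 to 1.14e-03%).

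The reads of *miR-212* could be counted one by one. They were 4, 5, 2, 1 and 6 in the Holstein libraries, in the order of their tags, and 1, 2, 1, 3, 7 and 1 in the Montbéliarde libraries. As normalized read counts they spanned 0.660 (CNLX7) to 7.82 (CNLX9) among the Holstein cows, and 0.784 (CNLX23) to 5.91 (CNLX21) among the Montbéliarde cows. With 1 read, as in CNLX7, the exact Poisson 95% interval was 0.0253 to 5.57 reads. The highest of these libraries, CNLX9 with 6 reads, had an interval of 2.20 to 13.1 reads, which overlapped with that of CNLX7. The smallest share that 3 reads could show was between 1.78e-05% and 4.93e-05% of the summed counts of a library. *MiR-212* was below 3 reads in 6 of the 11 libraries.

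**Figure D2:**
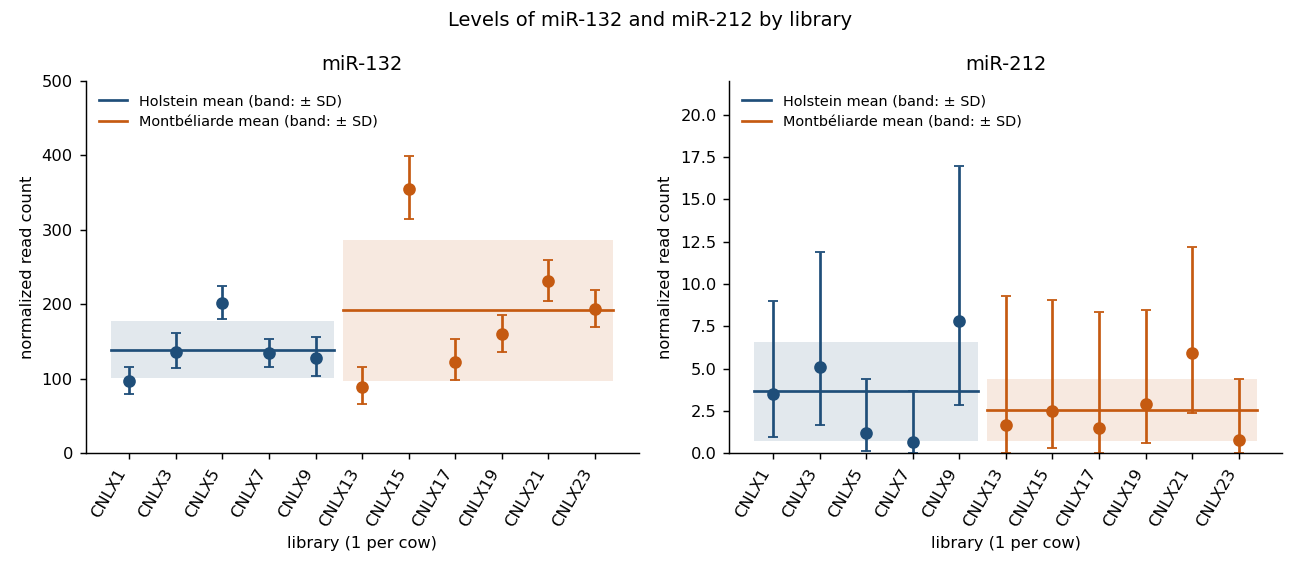
Normalized read count of *miR-132* (left) and *miR-212* (right) in each library (x axis), with exact Poisson 95% intervals as bars and the mean ± SD of each breed as line and band. *MiR-132* in CNLX15 (355) lies above all other libraries, while the intervals of *miR-212* are wide, and even those of its lowest and highest library (CNLX7 and CNLX9) share a small range.

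The spread of *miR-132* between cows was well above counting error, and that of *miR-212* was closer to it. The coefficient of variation (CV) of *miR-132* over the 11 libraries was 45.4%, against 7.82% from Poisson counting at a common level. It was 27.5% within Holstein and 49.2% within Montbéliarde. Without CNLX15 the CV was 31.2% over the other 10 libraries and 35.3% within Montbéliarde, where the mean was then 159 ± 56.2 (SD, n = 5) and the highest level was 2.61-fold above the lowest. Of the 214 miRNAs with a mean normalized read count of at least 100, 38 had a higher CV than *miR-132*, and the median was 25.8%. For *miR-212* the CV was 76.3%, against 60.6% from Poisson counting at a common level. The variance of its counts was 1.93 times the Poisson variance over all libraries, 3.04 times within Holstein and 1.38 times within Montbéliarde, against 29.5 times for *miR-132* over all libraries. The biological CV estimated by edgeR was 0.546 for *miR-212* and 0.378 for *miR-132*.

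Over all libraries 1982 reads were counted for *miR-132* and 33 for *miR-212*, or 60.1 reads of the former for each read of the latter. *MiR-212* thus held 1.64% of the 2015 reads of both (exact binomial 95% interval 1.13 to 2.29%, counting error only). How far ligation and PCR favoured 1 of these miRNAs was not measured. The ratio of *miR-132* to *miR-212* reads ranged from 16.3 (CNLX9) to 203 (CNLX7) in Holstein and from 39.0 (CNLX21) to 247 (CNLX23) in Montbéliarde, and in most libraries it rested on at most 3 reads of *miR-212*. On the log2 scale with 1 read added to each count, the ratio averaged 5.25 ± 1.38 (SD) over the 5 Holstein and 5.69 ± 0.87 (SD) over the 6 Montbéliarde cows. The difference of 0.44 was smaller than the SD of either breed (p = 0.506 by a two-sided exact permutation test, with 0.00216 as the smallest p that the 462 assignments allow).

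The comparison between breeds asked whether either miRNA differed with the dairy type of the cow, and neither passed the test. The normalized read count of *miR-132* averaged 139 ± 38.3 (SD) over the 5 Holstein cows, against 192 ± 94.4 (SD) over the 6 Montbéliarde cows. The breeds overlapped: 2 of the 6 Montbéliarde libraries, CNLX15 and CNLX21, were above every Holstein library, and CNLX13 was below all of them. Its log2FC, Montbéliarde over Holstein, was 0.45 (standard error 0.31, 95% interval -0.22 to 1.13, edgeR quasi-likelihood F-test, adjusted p = 0.505 by Benjamini-Hochberg over all 550 miRNAs tested). The unadjusted p was 0.170 in this test, and an exact permutation test of log2(normalized read count + 1), two-sided, gave p = 0.338. The interval spans a slightly lower level as well as one more than doubled in Montbéliarde, and these cows could not tell apart the sizes within it. Of all miRNAs tested, 2 (0.364%) passed the threshold, an adjusted p of at most 0.05, while 78 (14.2%) reached 0.05 or less before adjustment. The first of these counts depended on the tool, since DESeq2 called 22 of the 378 miRNAs to which it gave an adjusted p, whereas edgeR called 0 with the size factors of DESeq2 and 0 to 6 with single libraries left out.

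For *miR-132* the size of the difference depended on single libraries, in both directions. Without CNLX15 the log2FC was 0.29, and without CNLX5 of the Holstein cows it was 0.66. After adding as a covariate the mean level of the epithelial list described below, which was decided once the data had been seen, it was -0.16 (standard error 0.24, adjusted p = 0.925 from edgeR). With log2 of the library total as a covariate it was 0.79 (standard error 0.29, unadjusted p = 0.0187, adjusted p = 0.191 from edgeR). None of these values passed the threshold after adjustment.

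The normalized read count of *miR-212* averaged 3.66 ± 2.94 (SD) over the 5 Holstein cows, against 2.55 ± 1.81 (SD) over the 6 Montbéliarde cows, and the ranges of the breeds overlapped. The log2FC was -0.27 (standard error 0.66, 95% interval -1.67 to 1.13, edgeR, adjusted p = 0.886). Without CNLX9, the library with the highest level, the sign turned and the log2FC was 0.15. At 33 reads in all, neither a direction nor a size could be read from this comparison.

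*MIR22* of the same chromosome gives 2 miRNAs, *miR-22-5p* and *miR-22-3p*, which act in many tissues and served as a comparison from beyond the locus. *MiR-22-3p* was among the most abundant miRNAs, with a mean of 120375 ± 30996 (SD) over the 5 Holstein cows and of 105228 ± 16076 (SD) over the 6 Montbéliarde cows. Its counts stood in a constant ratio to those of *miR-3600*, whose gene overlaps *MIR22* in the RefSeq annotation, so that reads shared between these miRNAs cannot be told apart. *MiR-22-5p* was at 133 ± 19.6 in Holstein and 133 ± 36.5 in Montbéliarde, a mean close to that of *miR-132*. Neither arm passed the breed test, with log2FC of -0.20 (adjusted p = 0.627) for *miR-22-3p* and -0.00414 for *miR-22-5p* (adjusted p = 0.997, both from edgeR).

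The stromal list held 7 miRNAs known from fibroblasts and smooth muscle, of which none passed the breed test with edgeR. With DESeq2, *miR-199c* passed with a higher level in Montbéliarde (log2FC 0.88, adjusted p = 0.0391). In edgeR an unadjusted p of at most 0.05 was found for 3 of them (*miR-143*, *miR-199a-3p* and *miR-199c*), each with a higher mean in Montbéliarde. Over all 550 miRNAs tested, 78 (14.2%) had such a p. The median log2FC of the list was 0.58 (0.31 without CNLX15), beside 0.03 over all 550 miRNAs tested. *MiR-143* and *miR-145*, which are made from 1 transcript in smooth muscle, did not share a sign, with log2FC of 0.58 (adjusted p = 0.171 from edgeR) and -0.27 (adjusted p = 0.649). For *miR-199a-3p* and *miR-199b* of the fibroblasts the log2FC were 0.67 (adjusted p = 0.246) and 0.06 (adjusted p = 0.911). The summed normalized read count of the list was 1513762 to 2305761 in Holstein libraries and 1928406 to 3870467 in Montbéliarde libraries, CNLX15 being the highest.

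The epithelial list held 11 miRNAs, of which 10 were tested and none passed with edgeR or DESeq2. The other one, *miR-203*, was not analysed here. The unadjusted p from edgeR was at most 0.05 for *miR-200c* and *miR-141*, each with a higher mean in Holstein. These were 2 of 10, beside 14.2% of all miRNAs tested. The median log2FC of the list was -0.17 (-0.08 without CNLX15). *MiR-200c*, which keeps cells epithelial by repressing ZEB factors, had a log2FC of -0.62 (adjusted p = 0.322 from edgeR). *MiR-205*, a miRNA of basal cells, had one of 0.39 (adjusted p = 0.348). The summed level was 411090 to 511218 in Holstein libraries, against 214258 (CNLX21) to 515816 (CNLX13) in Montbéliarde libraries. The leukocyte list had a median log2FC of 0.40 (0.17 without CNLX15) with none of 5 passing in edgeR or DESeq2, and a summed level of 18031 to 26952 in Holstein and of 17229 to 39422 in Montbéliarde. All markers tested in these lists had reads, and their part in the breed values of *miR-132* was not tested. The epithelial covariate given above is no such test, since it was chosen once the same libraries had been seen.

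**Figure D3:**
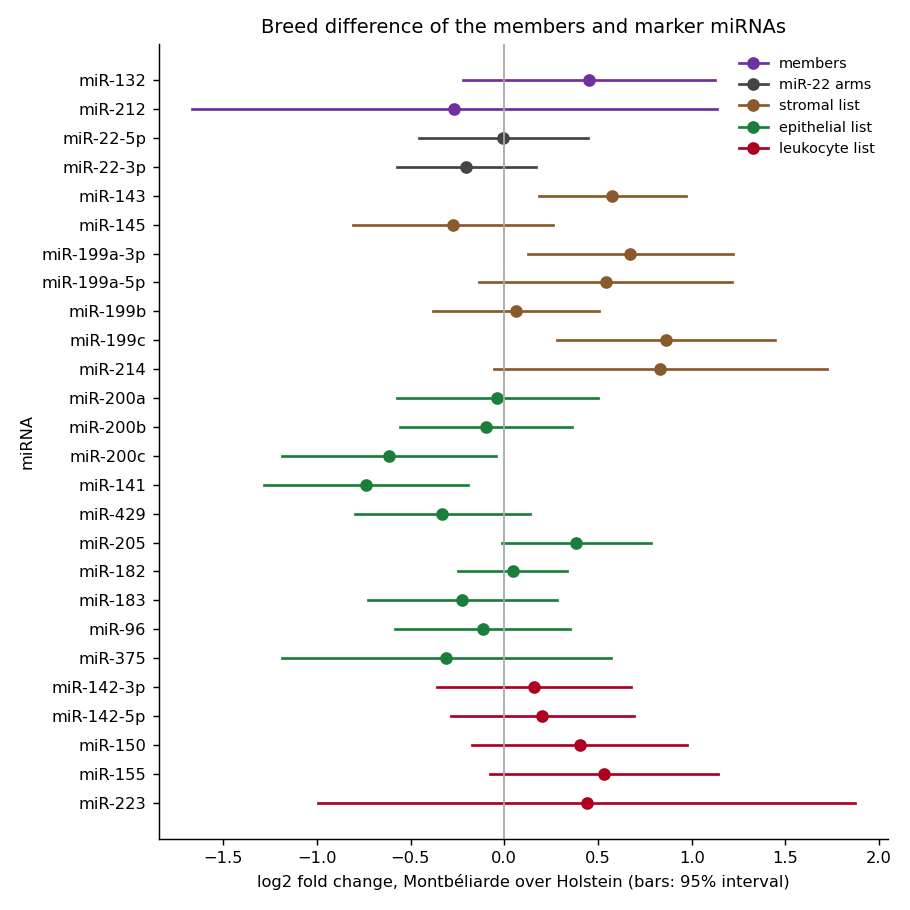
Log2 fold change, Montbéliarde over Holstein, with 95% intervals from edgeR (x axis) for *miR-132*, *miR-212*, the arms of *miR-22* and the miRNAs of the stromal, epithelial and leukocyte lists (y axis). The interval of *miR-132* (-0.22 to 1.13) and the wider one of *miR-212* (-1.67 to 1.13) include 0.

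Whether the neighbouring miRNAs varied together across cows was asked by correlating their levels. On log2(normalized read count + 1), Pearson's r between *miR-132* and *miR-212* was -0.0132 (permutation test, n = 11, p = 0.970) and Spearman's rho was -0.0182 (p = 0.968). Without CNLX15 and CNLX21, the libraries farthest from the median of *miR-132*, r was -0.304 (permutation p = 0.421, n = 9), and within the 6 Montbéliarde cows it was 0.363 (exact p = 0.493). The sign of r was not stable when single libraries were left out. With at most 7 reads of *miR-212* in a library, a joint variation was not detectable at this depth. The same holds for *miR-212* with the lists below, where r was between -0.128 and 0.227 and each adjusted p was 0.970 (permutation tests, n = 11). Without CNLX15 and CNLX21, r of *miR-212* was -0.357 with the stromal list, 0.681 with the epithelial list and -0.680 with the leukocyte list (n = 9, permutation p = 0.339, 0.0444 and 0.0364, unadjusted). The last 2 values had the opposite sign within the Montbéliarde cows (-0.690 and 0.457, exact p = 0.150 and 0.374, n = 6), and at so few reads no relation is read from them.

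*MiR-132* was higher in libraries with a lower level of the epithelial list, and by Pearson's r alone in those with a higher level of the stromal list. In all, 9 correlations were computed in this family, and p-values were adjusted over them. With the mean log2 level of the epithelial list, r was -0.836 (permutation test, n = 11, p = 0.000650, adjusted p = 0.00585) and rho was -0.800 (p = 0.00494, adjusted p = 0.0445). The relation had the same sign within the 6 Montbéliarde cows, at r = -0.892 (exact permutation p = 0.00833) and rho = -0.943 (exact p = 0.0167), where the adjusted p of r was 0.0750. No correlation was computed within the 5 Holstein cows, since at least 6 were required. With each breed set to its own mean, r was -0.825 (permutation within breeds, adjusted p = 0.0507). In a biopsy, fewer cells of a type and less RNA per cell of that type cannot be told apart.

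The correlation with the epithelial list rested in part on 2 libraries. Without CNLX15, r was -0.698 (permutation p = 0.0109, n = 10, adjusted p = 0.0985). Without CNLX15 and CNLX21, the libraries farthest from the median of the list, it was -0.573 (permutation p = 0.107, n = 9). With counts scaled by the library total it was -0.615 (adjusted p = 0.121). The levels entering each correlation share their library and its scaling factor.

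With the stromal list, r was 0.793 (permutation test, n = 11, p = 0.00415, adjusted p = 0.0187), whereas rho was 0.645 (p = 0.0367, adjusted p = 0.165). Without CNLX15 and CNLX21, r fell to 0.256 (permutation p = 0.503, n = 9), so that the relation rested on these libraries. Without CNLX15 alone it was 0.556 (adjusted p = 0.405, n = 10, permutation test), without CNLX21 alone 0.769 (adjusted p = 0.115) and without CNLX1 alone 0.768 (adjusted p = 0.0521). Within the Montbéliarde cows it was 0.777 (exact p = 0.0694, n = 6) with a rho of 0.60 (exact p = 0.242). The correlation with the leukocyte list, r = 0.649 and rho = 0.309, did not pass (permutation tests, n = 11, adjusted p = 0.0922 and 0.779), and r was 0.280 without CNLX15 and -0.129 without CNLX15 and CNLX21. With the *miR-22* arms r was -0.194 and rho -0.218 (adjusted p = 0.970 and 0.779, permutation tests, n = 11).

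**Figure D4:**
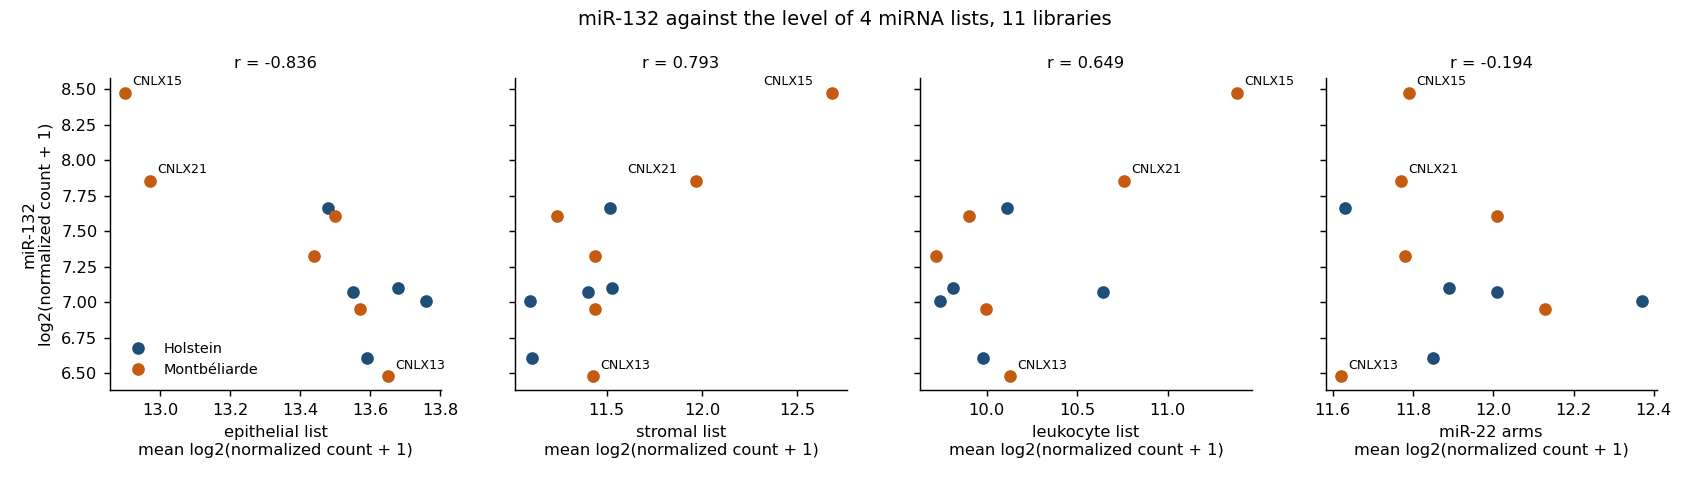
Level of *miR-132* (y axis) against the mean level of the epithelial, stromal and leukocyte lists and of the *miR-22* arms (x axes), all as log2(normalized read count + 1), with 1 point per library. CNLX15 and CNLX21 have the highest *miR-132* and the lowest epithelial level, and r is -0.836, 0.793, 0.649 and -0.194 from left to right.

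Marker by marker, the epithelial miRNAs did not behave alike towards *miR-132*. Of the 10 measured, 7 had a negative r and 5 of these passed after adjustment over the 17 markers of both lists. The 5 were *miR-200a*, *miR-200b*, *miR-200c*, *miR-141* and *miR-429*, which form the *miR-200* family, and they are named here because of their values. As members of a family they are not taken as separate observations. The share of all miRNAs that would pass was not counted, so no result about the list is read from this count. For *miR-429* r was -0.904 (permutation test, n = 11, p = 6.00e-05, adjusted p = 0.00102) and rho -0.864 (adjusted p = 0.0201). It was -0.744 without the 2 libraries farthest from its median, -0.813 without CNLX15 and -0.925 within Montbéliarde. For the others of the family r was between -0.852 (*miR-200a*) and -0.741 (*miR-141*), and without CNLX15 between -0.724 (*miR-200a*) and -0.617 (*miR-200b*). Without the 2 libraries farthest from the median of each marker, r was -0.413 for *miR-200b*, -0.508 for *miR-200c*, -0.573 for *miR-200a* and -0.825 for *miR-141*. By rank these 4 did not pass, with adjusted p-values from 0.0538 to 0.102 (permutation tests, n = 11).

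The remaining epithelial markers gave values in either direction. *MiR-205* had an r of 0.328 and a rho of 0.418 with *miR-132* (permutation tests, n = 11, adjusted p = 0.344 and 0.262). *MiR-182* had an r of -0.359 and a rho of -0.60 (adjusted p = 0.318 and 0.119, permutation tests, n = 11). For *miR-375*, *miR-183* and *miR-96* r was -0.612, 0.441 and 0.309 (adjusted p = 0.0671, 0.211 and 0.354, permutation tests, n = 11). Without CNLX15 these were -0.228, -0.0158 and -0.121, so the last of them changed sign, as did *miR-183*. *MiR-205* and *miR-182* kept their signs without CNLX15 (0.465 and -0.598). All 7 stromal markers had a positive r, from 0.590 (*miR-143*) to 0.770 (*miR-214*), and 5 passed, namely *miR-145*, *miR-199a-3p*, *miR-199a-5p*, *miR-199b* and *miR-214*, again named because of their values. Without CNLX15, their r ranged from 0.282 for *miR-199a-3p* to 0.662 for *miR-145*. Without the 2 libraries farthest from the median of each marker, r ranged from -0.118 (*miR-199a-3p*) to 0.689 (*miR-199b*), with 0.0754 for *miR-214*. By rho none of the stromal markers passed, and the lowest adjusted p was 0.102 (permutation test, n = 11). How many of all miRNAs would reach such values with *miR-132* was not counted, for either list. Outside the lists, r went up to 0.872 (*miR-296-3p*), above every stromal marker, but this miRNA was picked for the height of its r. No cell type is read from the counts of markers, and the cell source of *miR-132* was not tested.

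By pattern across the 11 libraries, the miRNAs most like *miR-132* among the 214 with a mean of at least 100 were *miR-296-3p* (r = 0.872, rho = 0.691), *miR-106b* (0.863 and 0.709), *miR-218* (0.849 and 0.818), *miR-15b* (0.816 and 0.745) and *miR-369-3p* (0.813 and 0.855). They were picked for the height of r, which is therefore given without a test. All 5 had their highest level in CNLX15, and 4 had their lowest in CNLX13, as had *miR-132*. Without CNLX15 their r was between 0.665 and 0.757. None of them passed the breed test, with log2FC between 0.09 and 0.62 (adjusted p at least 0.335 from edgeR). For *miR-212* the most similar were *miR-196a* (r = 0.759), *miR-154c* (0.643), *miR-450b* (0.633), *miR-2284x* (0.586) and *miR-1298* (0.566), and with at most 7 reads of *miR-212* in a library no likeness is read from these values.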

How the data were processed

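Small RNA libraries of 5 Holstein and 6 Montbéliarde cows were analysed. According to the methods, the authors trimmed adaptors, kept reads of a set length range and quantified miRNAs with ncPRO-seq and miRDeep2 on the btau5.0.1 assembly with miRBase. They deposited, for each library, the raw counts of reads on mature miRNAs and a signal, the normalized read counts, which are these counts divided by 1 factor per library (DESeq2 1.18.1). How reads matching more than 1 miRNA were counted is not stated in the methods. In the deposited counts, *miR-129* equalled 1 other row in every library, and *let-7b* and *miR-3596* had the same mean level. Some reads thus stand under more than 1 name. The authors' breed means, fold changes and p-values were not used. Replicates were separate cows.

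Breeds were compared on counts with edgeR 4.0.16 (TMM, robust glmQLFit, glmQLFTest; R 4.3.3) over the 550 miRNAs with at least 10 counts in all. DESeq2 1.42.0 and limma 3.58.1 served as alternatives. Correlations used 100000 resamples, or every order for n = 6. The fits were tested on simulated data. Depth is given with the results; for *miR-212* counting error limits precision.

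The members and lists were chosen with earlier results of these data known. Named were the members, up to 4 miRNAs per marker list by mean level, the 5 most similar to each member and their neighbours by level. Outside this rule, further list members were named because of their values, and *miR-9* was looked up after the data had been seen. A search for shared seeds was not made, since no sequence was used. Gene order came from RefSeq (ARS-UCD2.0), without coordinates because the assembly differs.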

Additional observations from a re-analysis of the deposited data

How the results depend on the processing

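Neither miRNA passed the breed test under any alternative that gave an adjusted p, which was 0.191 to 0.925 for *miR-132* and 0.710 to 0.989 for *miR-212*. For *miR-132* the log2FC ranged from 0.29 to 0.66 with single libraries left out and turned to -0.16 with the epithelial level as a covariate, an alternative added after seeing the data. For *miR-212* it ranged from -0.75 to 0.15. The number of miRNAs passing between breeds, 2 of 550, was 22 with DESeq2, 0 in edgeR with DESeq2 size factors (82 with an unadjusted p of at most 0.05), 1 with total counts only, 1 with the epithelial covariate, and 0 to 6 with single libraries left out. The difference in the log2 ratio of the miRNAs stayed between 0.08 and 0.83 without single libraries.

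For *miR-132* with the epithelial list, r was -0.615 with counts scaled by the library total and -0.825 on deviations from breed means, neither of which passed, and -0.861 to -0.698 with single libraries left out. With the stromal list it did not pass with Spearman's coefficient (0.645), on deviations (0.765) or with the summed level of the list (0.592), and it was 0.556 to 0.868 with libraries left out. The correlation of *miR-132* with *miR-212* turned to 0.0470 on deviations and ranged from -0.167 to 0.0898. That of *miR-212* turned to -0.0930 for the stromal list with counts scaled by the total and to 0.245 for the epithelial list with Spearman's coefficient. With libraries left out, the ranges for *miR-212* were -0.0852 to 0.293 (stromal), -0.329 to 0.241 (epithelial), -0.318 to 0.0393 (leukocyte) and -0.274 to 0.342 (*miR-22* arms). The causes were not tested. *MiR-212* was not tested with a mean count of at least 100, and DESeq2 gave it no adjusted p. The breeds share no replicate number, and no paired comparison was made.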

Other observations

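Other cell types that a biopsy can hold were present to different degrees. Of the miRNAs of neurons, in which *miR-132* and *miR-212* are best known, the 4 measured members of the list were low. They summed to a normalized read count of 3.51 to 10.9 in Holstein and of 5.07 to 42.5 in Montbéliarde, and *miR-124a*, the defining neuronal miRNA, reached at most 18.7, in CNLX15. *MiR-9*, another neural miRNA, is listed without an arm and was looked up after the data had been seen. Its normalized read count averaged 17.9 ± 11.2 (SD) over the 5 Holstein and 49.6 ± 53.0 (SD) over the 6 Montbéliarde cows, from 11.4 in CNLX1 to 155 in CNLX15, with a log2FC of 1.40 (adjusted p = 0.309 from edgeR). CNLX15, the library with the highest *miR-132* (355), thus also had the highest *miR-124a* and *miR-9*. The list did not act as 1, since *miR-124b* and *miR-129* were highest in CNLX15 as well, whereas *miR-219-5p* was at 0 there. The part of neural miRNAs in the level of *miR-132* was not tested.

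The endothelial miRNAs *miR-126-5p* and *miR-126-3p* were abundant, with a summed level of 251466 to 330168 in Holstein and 239684 to 297167 in Montbéliarde. Those of red blood cells summed to 23603 to 39552 and 23429 to 57421, highest in CNLX17. Of the muscle miRNAs, *miR-133a* averaged 854 ± 502 (SD) over the 5 Holstein and 905 ± 365 (SD) over the 6 Montbéliarde cows, while *miR-133b* averaged 5.84 over all libraries. No miRNA of these lists passed the breed test with edgeR, and median log2FC were 1.40 (neural, 4 tested), -0.08 (endothelial, 2), 0.28 (erythroid, 3) and 0.31 (muscle, 3), beside 0.03 over all miRNAs tested. Without CNLX15 the neural median was 0.54.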
